A study of Rattus norvegicus with 144 samples.

Results

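Cyp2e1, Cyp1a2 and Cyp3a2 encode the liver cytochrome P450 enzymes held to turn acetaminophen into its reactive product. All probes annotated with 1 of these symbols were taken. Each gene had 1 probe, so 3 of 22075 probes and 3 of 18978 gene rows are described, over 12 groups of time and dose. A gene row is a symbol with its probes averaged, or a probe without a single symbol. The rats were males of the inbred strain F344/N, aged 10 to 12 weeks. They were given vehicle (ethyl cellulose) or 150, 1500 or 2000 mg/kg acetaminophen by gavage, split into 2 portions, and killed 3, 6 or 24 h later for the left liver lobe. Each of the 12 groups held 6 rats. RNA from each liver was hybridised on 2 arrays with exchanged dyes, against RNA pooled from vehicle rats killed at the same time. Whole liver tissue was used, so fewer cells of a type and less RNA per cell cannot be told apart.

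P450 enzymes sit in the endoplasmic reticulum of hepatocytes, carry a heme group and receive electrons from the reductase Por. Most acetaminophen is joined to glucuronic acid or sulfate and leaves the body. A small share is oxidised, chiefly by CYP2E1, with CYP1A2 and CYP3A enzymes, to the quinone imine NAPQI, which consumes glutathione and then binds to proteins. Cyp2e1 and Cyp1a2 are found mainly in hepatocytes around the central vein, the zone in which acetaminophen injury begins. Cyp1a2 is a target of the aryl hydrocarbon receptor AHR. Rat Cyp3a genes are targets of the pregnane X receptor PXR (Nr1i2), and Cyp3a2 is expressed more in adult males than in females. Cyp2e1 is known to be controlled largely through the stability of its protein.

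The 250 bases before the start that RefSeq's promoter table uses for each gene are printed because these genes went different ways at 24 h while the mRNAs of several factors that recognise such motifs were also measured. They are RefSeq sequence of the rat assembly GRCr8, read 5′ to 3′ along the gene's own strand. Capitals mark the matches, on either strand, to the core site of nuclear receptors (AGGTCA), a FOXA motif (TGTTTAC), a CEBP motif (TTGCNNAA) and a TATA box (TATAAA). Cyp2e1 lies on chromosome 1 from 205269967 to 205280365, and its window is chr1:205269717-205269966 on the plus strand. Cyp1a2 lies on chromosome 8 from 66971261 to 66978149, and its window is chr8:66978150-66978399 on the minus strand. Cyp3a2 lies on chromosome 12 from 14321771 to 14343886, and its window is chr12:14343858-14344107 on the minus strand, so that the last bases of the window lie inside the annotated gene.
Cyp2e1: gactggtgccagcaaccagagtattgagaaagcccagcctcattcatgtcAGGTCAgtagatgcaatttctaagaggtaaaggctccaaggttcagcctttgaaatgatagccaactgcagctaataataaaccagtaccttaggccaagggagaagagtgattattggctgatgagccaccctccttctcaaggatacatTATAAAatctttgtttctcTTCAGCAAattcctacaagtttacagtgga
Cyp1a2: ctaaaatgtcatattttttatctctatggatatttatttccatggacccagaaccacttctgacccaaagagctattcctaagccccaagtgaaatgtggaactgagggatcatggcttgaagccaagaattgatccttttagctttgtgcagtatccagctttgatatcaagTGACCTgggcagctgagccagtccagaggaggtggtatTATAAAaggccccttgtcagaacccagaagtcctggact
Cyp3a2: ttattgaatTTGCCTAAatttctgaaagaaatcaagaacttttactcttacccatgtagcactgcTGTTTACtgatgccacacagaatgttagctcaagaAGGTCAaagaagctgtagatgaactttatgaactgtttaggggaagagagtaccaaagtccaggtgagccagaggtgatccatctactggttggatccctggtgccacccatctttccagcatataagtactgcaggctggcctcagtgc
AGGTCA or its reverse complement was found once in each of the 3 windows, and in 14.1% of 33469 rat promoter windows of this length. TGTTTAC was found in Cyp3a2 alone of these windows (3.21% of all promoters). TTGCNNAA was found in Cyp2e1 and Cyp3a2 (9.22% of all), and TATAAA in Cyp2e1 and Cyp1a2 (12.9% of all). Neither the HNF1 core GTTAAT (6.45% of all) nor the AHR core GCGTG (25.9% of all) was found in these windows. The searches did not overlap in any window, and a match is a run of letters, not a measured binding site.

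A value below is the log2 ratio of a rat to the pool of its time, averaged over the rat's 2 arrays, where 1 unit is a 2-fold difference. The deposited values were taken as log10 ratios of Cy5 over Cy3. Neither the base nor the direction is stated in the sources used here. Another base would multiply every log2 value by 1 factor, raise every fold to the power of that factor, and leave the calls as they are. The direction is likely, since genes known to rise after toxic acetaminophen were higher in dosed rats, such as Nqo1, a quinone reductase, by 2.16 ± 0.16 (SE, log2 difference from vehicle) at 24 h and 2000 mg/kg. Ratios hold no absolute level, so the levels of the 3 genes are not compared with each other and liver markers could not be checked as levels. The median log2 ratio over 12 secreted hepatocyte proteins lay between -0.10 and 0.39 in all rats of 24 h. All 3 probes had a value on every array of the series. A set of 49 arrays shared 500 blank probes and is treated as a possible batch. It held both arrays of 3 rats at 1500 mg/kg, 3 rats at 2000 mg/kg and 2 vehicle rats at 24 h.

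At 24 h after toxic doses the mRNAs of the 3 enzymes went different ways. Cyp3a2 fell at both doses, with log2 differences from vehicle of -2.28 ± 0.37 at 1500 mg/kg and -2.76 ± 0.37 at 2000 mg/kg (SE, 6 dosed against 6 vehicle rats). Cyp1a2 fell too, with -1.29 ± 0.29 and -1.16 ± 0.29 at these doses. Cyp2e1 did not pass the threshold at either dose, and its mean was above that of vehicle rats. Thus 2 of the 3 genes were called lower at each dose. Of all gene rows, limma (adjusted p under 0.05) called 11.4% lower and 10.2% higher at 1500 mg/kg, together 21.5%. At 2000 mg/kg it called 12.5% lower and 11.8% higher, together 24.3%.

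**Figure D1:**
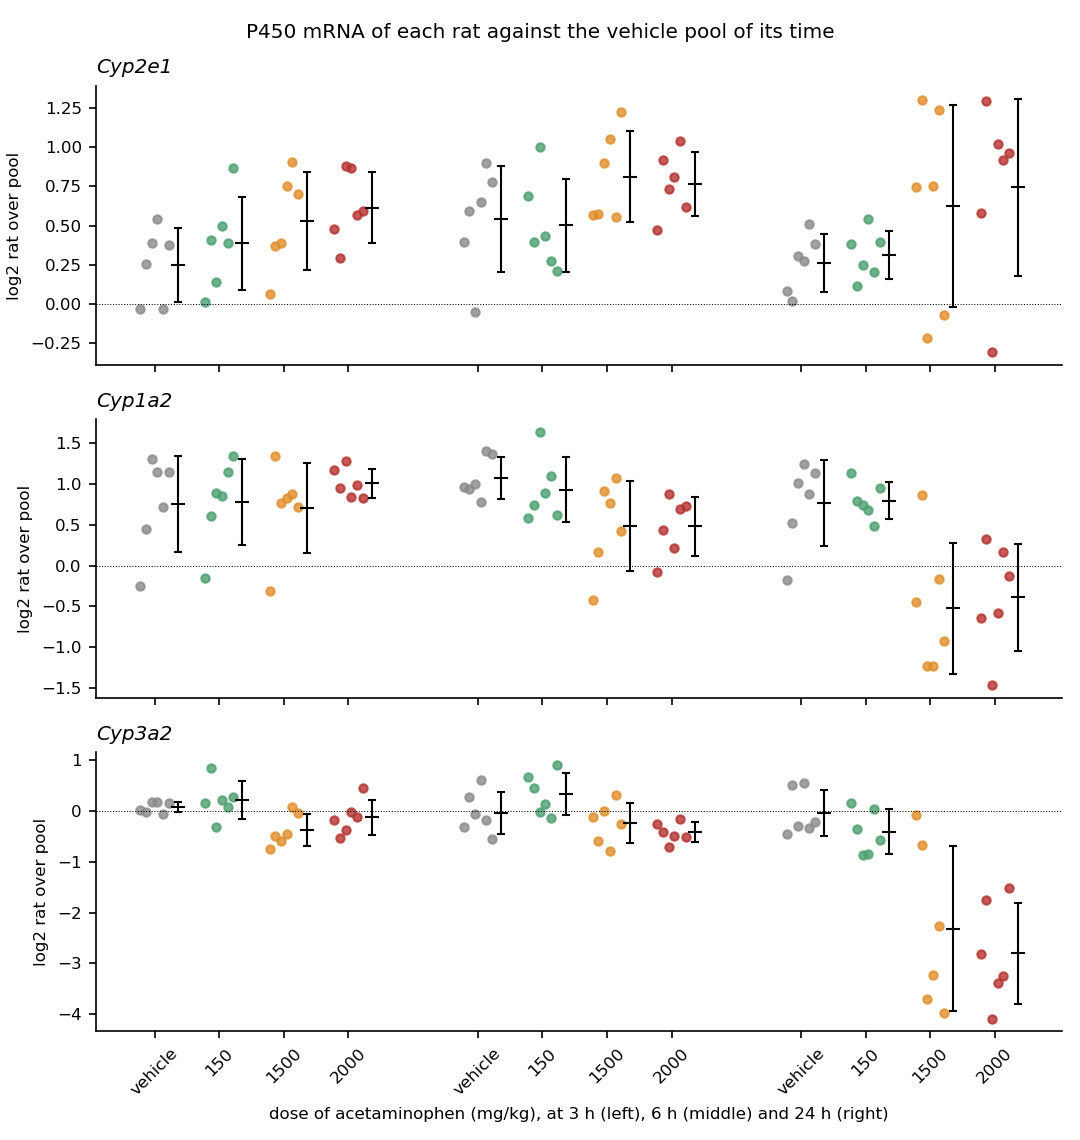
The log2 ratio of each rat to the vehicle pool of its time (y axis) is shown for Cyp2e1, Cyp1a2 and Cyp3a2 by dose within 3, 6 and 24 h (x axis). Points are rats, and black bars are the mean ± SD of 6 rats. Cyp3a2 spans -3.97 to -0.08 at 24 h and 1500 mg/kg, the widest of the 36 groups drawn, while vehicle rats of 24 h span -0.45 to 0.54.

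Cyp3a2, a CYP3A enzyme expressed more in adult male than in female rats, ranged from -3.97 to -0.08 (median -2.75) at 24 h and 1500 mg/kg. It ranged from -4.09 to -1.52 (median -3.03) at 2000 mg/kg, against -0.45 to 0.54 (median -0.26) in vehicle rats. The 2000 mg/kg rats lay wholly below the vehicle rats, a pattern found in 5.76% of gene rows, whereas 1 rat at 1500 mg/kg lay within the vehicle range. The fall corresponded to 4.85-fold lower mRNA at 1500 mg/kg (limma adjusted p = 2.1e-06) and 6.77-fold lower mRNA at 2000 mg/kg (limma adjusted p = 1.8e-08). At each dose 6 of 6 rats were below the vehicle mean of -0.04, at 1500 mg/kg including rat 0504 at -0.08, within the vehicle range. Ranked by size among 18978 gene rows, it was the number 10 fall at 1500 mg/kg and the number 7 fall at 2000 mg/kg. The SE rests on 1 spread per gene over all 12 groups, while the SD was 1.63 at 1500 mg/kg, against 0.45 in vehicle rats. A fit of only these 2 groups gave Cyp3a2 at 1500 mg/kg a limma adjusted p of 0.053. The difference at 1500 mg/kg was -1.56 (limma adjusted p = 0.069) in rats free of the shared blank probes and -2.88 (limma adjusted p = 0.0028) in rats that have them. The 3 dosed rats free of them included rats 0504 (-0.08) and 5389 (-0.66), the highest of this dose. The array set and these rats cannot be told apart here.

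Cyp1a2, an AHR-controlled enzyme of pericentral hepatocytes, ranged from -1.23 to 0.86 (median -0.68) at 24 h and 1500 mg/kg. It ranged from -1.47 to 0.32 (median -0.36) at 2000 mg/kg, against -0.18 to 1.25 (median 0.95) in vehicle rats. The groups overlapped at both doses. Cyp1a2 was below the vehicle mean in 5 of 6 rats at 1500 mg/kg and in 6 of 6 rats at 2000 mg/kg. It was 2.45-fold lower at 1500 mg/kg (limma adjusted p = 0.0004) and 2.23-fold lower at 2000 mg/kg (limma adjusted p = 0.0013). At 1500 mg/kg a fit of only these 2 groups lost the call (limma adjusted p = 0.055). The difference there was -0.92 (limma adjusted p = 0.28) in rats free of the shared blank probes and -1.78 (limma adjusted p = 0.0012) in rats that have them. The dosed rats free of them again included rats 0504 and 5389.

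Cyp2e1, the main acetaminophen-oxidising P450, ranged from -0.22 to 1.30 (median 0.75) at 24 h and 1500 mg/kg. It ranged from -0.31 to 1.29 (median 0.94) at 2000 mg/kg, against 0.02 to 0.51 (median 0.29) in vehicle rats. Dosed rats lay on both sides of the vehicle range: at 2000 mg/kg 5 were above every vehicle rat and 1 below, and at 1500 mg/kg 4 were above and 2 below. The difference from vehicle was 0.36 ± 0.20 (limma adjusted p = 0.20, 95% confidence interval -0.03 to 0.75) at 1500 mg/kg. It was 0.48 ± 0.20 (limma adjusted p = 0.063, unadjusted 95% confidence interval 0.09 to 0.88) at 2000 mg/kg. Without 2000 mg/kg rat 5889, the lowest, Cyp2e1 passed at 0.69, and without 1500 mg/kg rat 7075 it passed at 0.53.

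The genes were compared with each other by the per-rat difference of their log2 ratios, which cancels whatever both genes share in a rat. The tests were exact two-sided permutation tests of 6 against 6 rats, adjusted over 27 comparisons, and the smallest p this design allows is 0.0022. At 24 h Cyp3a2 minus Cyp2e1 was lower in dosed than in vehicle rats, with a log2 difference of -2.64 ± 0.56 at 1500 mg/kg (exact permutation, adjusted p = 0.017). At 2000 mg/kg it was -3.24 ± 0.37 (exact permutation, adjusted p = 0.012). Cyp1a2 minus Cyp2e1 was lower too, with -1.65 ± 0.28 and -1.64 ± 0.21 at these doses (exact permutation, adjusted p = 0.012 at each). Cyp3a2 minus Cyp1a2 was lower at 2000 mg/kg, with -1.60 ± 0.37 (exact permutation, adjusted p = 0.012). At 1500 mg/kg it was -0.99 ± 0.53 (exact permutation, adjusted p = 0.23), which did not pass. At 24 h the effect on Cyp2e1 thus differed from that on Cyp1a2 and from that on Cyp3a2 at both doses.

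**Figure D2:**
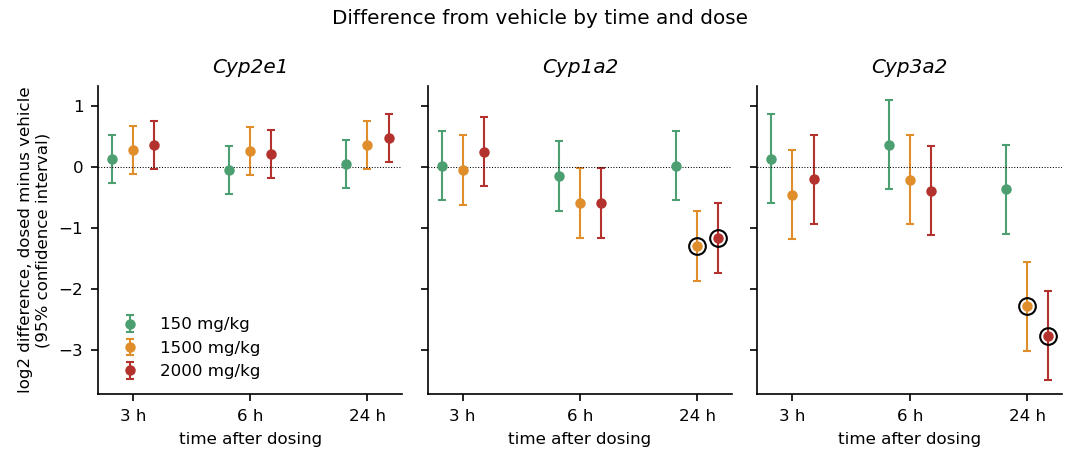
The log2 difference between dosed and vehicle rats (y axis, with 95% confidence intervals) is shown at 3, 6 and 24 h for 150, 1500 and 2000 mg/kg, 6 rats against 6. Black rings mark limma adjusted p under 0.05, which only Cyp1a2 and Cyp3a2 at 24 h and the 2 toxic doses reach.

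At 3 h none of the 3 genes passed, while 5.85% of gene rows did at 1500 mg/kg (3.39% higher, 2.46% lower) and 9.03% at 2000 mg/kg (4.92% higher, 4.1% lower). Cyp3a2 ranged from -0.74 to 0.07 (median -0.47) at 1500 mg/kg and from -0.52 to 0.46 (median -0.14) at 2000 mg/kg, against -0.05 to 0.17 (median 0.09) in vehicle rats. At 1500 mg/kg 4 of 6 rats were below every vehicle rat, and the difference was -0.45 ± 0.37 (limma adjusted p = 0.61). The SE rests here too on 1 spread per gene over all 12 groups. The SD of Cyp3a2 at 3 h was 0.32 at 1500 mg/kg and 0.10 in vehicle rats. Under the alternative fits the limma adjusted p of this difference ran from 0.076 to 0.83. Cyp2e1 ranged from 0.06 to 0.91 at 1500 mg/kg and from 0.29 to 0.88 at 2000 mg/kg, against -0.03 to 0.55 in vehicle rats. At 2000 mg/kg 6 of 6 rats were above the vehicle mean, and the difference was 0.36 ± 0.20 (limma adjusted p = 0.29). Set against each other, these 2 genes did differ at 3 h. Cyp3a2 minus Cyp2e1 was lower in dosed rats, with -0.73 ± 0.09 at 1500 mg/kg (exact permutation, adjusted p = 0.012) and -0.56 ± 0.16 at 2000 mg/kg (exact permutation, adjusted p = 0.032). At 3 h the array set with shared blank probes held both arrays of 3 rats at 2000 mg/kg, 1 at 1500 mg/kg and 0 vehicle rats. The part of that set in these pair differences was not tested. Cyp1a2 ranged from -0.31 to 1.34 at 1500 mg/kg and from 0.83 to 1.28 at 2000 mg/kg, against -0.25 to 1.31 in vehicle rats, with differences of -0.05 and 0.26 and an SE of 0.29 at each dose.

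At 6 h none of the 3 genes passed either, while 6.88% of gene rows did at 1500 mg/kg (3.65% higher, 3.23% lower) and 11.1% at 2000 mg/kg (5.31% higher, 5.84% lower). Cyp1a2 ranged from -0.43 to 1.07 (median 0.59) at 1500 mg/kg and from -0.07 to 0.88 (median 0.57) at 2000 mg/kg, against 0.78 to 1.40 (median 0.98) in vehicle rats. Of the dosed rats, 4 at 1500 mg/kg and 5 at 2000 mg/kg were below every vehicle rat. The differences were -0.59 ± 0.29 at 1500 mg/kg (limma adjusted p = 0.26) and -0.59 ± 0.29 at 2000 mg/kg (limma adjusted p = 0.20), and they passed in some alternative fits. Relative to Cyp2e1 in the same rat, Cyp1a2 was lower in dosed rats, with -0.86 ± 0.26 at 1500 mg/kg (exact permutation, adjusted p = 0.032) and -0.81 ± 0.18 at 2000 mg/kg (exact permutation, adjusted p = 0.017). Cyp2e1 differed from vehicle by 0.27 ± 0.20 and 0.22 ± 0.20 at 1500 and 2000 mg/kg, and Cyp3a2 by -0.20 ± 0.37 and -0.39 ± 0.37. The 95% confidence interval for Cyp3a2 at 2000 mg/kg ran from -1.12 to 0.34.

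The effect of a toxic dose was then compared between times. For Cyp3a2 the effect at 24 h minus that at 6 h was -2.08 ± 0.52 at 1500 mg/kg (limma adjusted p = 0.0046) and -2.37 ± 0.52 at 2000 mg/kg (limma adjusted p = 0.00075). At 24 h minus 3 h it was -1.83 ± 0.52 (limma adjusted p = 0.011) and -2.56 ± 0.52 (limma adjusted p = 0.00019). For Cyp1a2 the effect at 24 h minus that at 3 h was -1.24 ± 0.40 at 1500 mg/kg (limma adjusted p = 0.032) and -1.41 ± 0.40 at 2000 mg/kg (limma adjusted p = 0.0097). Between 6 and 24 h the Cyp1a2 effect changed by -0.70 ± 0.40 and -0.57 ± 0.40 and did not pass. No contrast between times passed for Cyp2e1, and none passed for any of the 3 genes between 3 and 6 h. Across all gene rows, 9.51% and 13% passed between 6 and 24 h, and 11.9% and 15.7% between 3 and 24 h, first at 1500 and then at 2000 mg/kg. Between 3 and 6 h 0.869% and 3.46% passed. The Cyp1a2 call at 1500 mg/kg was lost in 8 of the 24 fits that left out 1 rat, among them the fit without vehicle rat 1009 of 3 h (-1.04).

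The 2 toxic doses did not differ detectably for these genes. At 24 h the difference of 2000 minus 1500 mg/kg was -0.48 ± 0.37 for Cyp3a2 (95% confidence interval -1.21 to 0.25), 0.13 ± 0.29 for Cyp1a2 (-0.44 to 0.70) and 0.12 ± 0.20 for Cyp2e1 (-0.27 to 0.51). Of all gene rows, 0.0105%, 0.00527% and 0% passed between these doses at 3, 6 and 24 h.

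At 150 mg/kg none of the 3 genes passed at any time, and 0% of gene rows did. With limma 0 gene rows passed, and the unadjusted p was below 0.05 for 698 gene rows at 3 h, 590 at 6 h and 530 at 24 h. Each count is a smaller share of the 18978 gene rows than the 0.05 that chance alone would mark. Cyp3a2 differed from vehicle by 0.14 ± 0.37 at 3 h, 0.37 ± 0.37 at 6 h and -0.36 ± 0.37 at 24 h. At 24 h 3 of the 6 rats at 150 mg/kg were below every vehicle rat. Cyp2e1 differed by 0.14, -0.04 and 0.05 (SE 0.20 each) and Cyp1a2 by 0.03, -0.15 and 0.03 (SE 0.29 each) at 3, 6 and 24 h. The Cyp1a2 intervals ran from -0.54 to 0.60 at 3 h and at 24 h and from -0.72 to 0.43 at 6 h.

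Vehicle rats were not at 0 for every gene. Cyp1a2 in vehicle rats averaged 0.75 ± 0.58 at 3 h, 1.07 ± 0.25 at 6 h and 0.77 ± 0.53 at 24 h (SD, n = 6 each), which is 1.69-fold, 2.10-fold and 1.71-fold above the pool. It was above the pool in 5, 6 and 5 of 6 rats at these times. Only 0.443%, 0.295% and 0.49% of gene rows had a higher vehicle mean, and the median of all rows was between -0.02 and -0.01. Cyp2e1 in vehicle rats averaged 0.25 ± 0.24, 0.54 ± 0.34 and 0.26 ± 0.18, and Cyp3a2 0.08 ± 0.10, -0.03 ± 0.42 and -0.04 ± 0.45. The Cyp1a2 offset was seen in both dye orientations, with vehicle means of 0.74 on arrays with the rat in Cy5 and 0.99 on arrays with the rat in Cy3, 16 of 18 rats above 0 on each. Whether the pool was made from these same rats is not stated in the sources used here. Differences from vehicle do not use the pool's own level, because dosed and vehicle rats of a time share 1 pool.

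The 12 rats of the toxic doses at 24 h differed widely. In 3 of them, rats 7075 and 9537 at 1500 mg/kg and rat 5889 at 2000 mg/kg, Cyp2e1 lay between -0.31 and -0.07, and in the other 9 between 0.58 and 1.30. The same 3 rats had the lowest Cyp3a2 of all, at -3.70, -3.97 and -4.09, and their Cyp1a2 was -1.23, -0.92 and -1.47. They also had the highest S100a9, a neutrophil protein, at 3.80, 4.34 and 4.55, while the other 9 rats ranged from -0.68 to 2.32 and vehicle rats from -1.51 to -0.17. At the other end, rats 0504 and 5389 at 1500 mg/kg had the highest Cyp3a2, at -0.08 and -0.66. In these 2 rats Glul, the glutamine synthetase of the cells next to the central vein, was -0.69 and -0.74, while the other 10 ranged from -2.50 to -1.59 and vehicle rats from -0.13 to 0.08. Hmox1, the heme oxygenase induced by oxidative stress, was -0.08 in rat 0504 and 0.22 in rat 5389, within the vehicle range of -0.09 to 0.63. It was within that range also in rat 9540 at 2000 mg/kg, at 0.46, where Cyp3a2 was -1.52 and Glul -1.59, and it was between 2.21 and 4.49 in the other 9. The part of these differences in the P450 values was not tested.

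**Figure D3:**
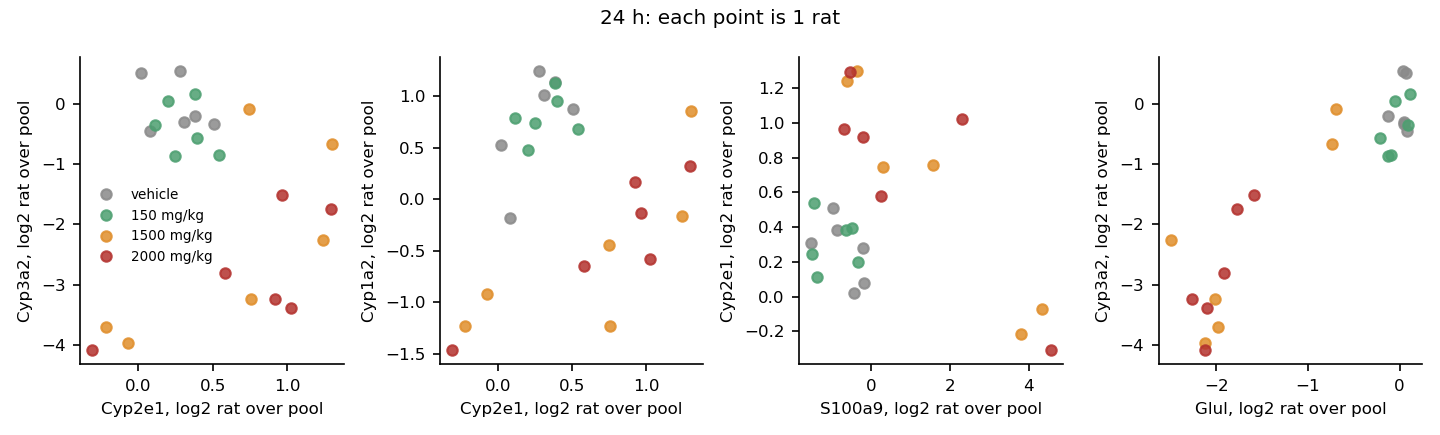
Each point is 1 rat of 24 h, coloured by dose, with log2 ratios to the vehicle pool on both axes. From left to right Cyp3a2 and Cyp1a2 are drawn against Cyp2e1, Cyp2e1 against S100a9, and Cyp3a2 against Glul. The 3 rats with S100a9 of 3.80 or more have Cyp2e1 below 0, and the 2 toxic-dose rats with Glul above -1 have the highest Cyp3a2 of the toxic doses.

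Correlations between the members over rats were computed in 6 sets of 12 rats, the toxic doses together and 150 mg/kg with vehicle at each time, with dose means removed and p-values adjusted over all 18. Among the toxic-dose rats of 24 h, 2 of the 3 pairs passed on both measures, Cyp1a2 with Cyp2e1 and Cyp3a2 with Cyp1a2. No coefficient is given for that set, because the 3 rats of low Cyp2e1 stand apart from the other 9. Correlations within those 9 rats were also computed and support nothing here, because the 9 were chosen by their Cyp2e1 values after these were seen, which narrows the range of Cyp2e1.

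In the other 5 sets, a pair passed on both measures in 2. At 3 h in the rats at 150 mg/kg and vehicle, Cyp1a2 and Cyp2e1 gave r = 0.76 (permutation p = 0.0040, adjusted p = 0.026) and rho = 0.79 (permutation p = 0.0033, adjusted p = 0.020), with r = 0.60 without the 2 farthest rats. At 6 h in the rats at 150 mg/kg and vehicle, Cyp3a2 and Cyp1a2 gave r = -0.75 (permutation p = 0.0044, adjusted p = 0.026) and rho = -0.83 (permutation p = 0.0013, adjusted p = 0.012), with r = -0.70 without the 2 farthest rats. The same pair gave r = 0.06 at 3 h and r = 0.26 at 24 h in those dose groups (permutation p = 0.85 and p = 0.45).

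The gene symbols whose values over the 72 rats were most like those of each member are given as a description, out of 9652 symbols. All rats of a time share a pool, and every value carries the noise of its arrays. Closest to Cyp3a2 was its close relative Cyp3a23-3a1 (r = 0.97, and r = 0.96 after removal of the group means), and whether the probe of either also binds the other's transcript was not tested. The next were the dicarboxylate transporter Slc13a3 (0.95), the organic anion transporter Slco1a1 (0.94), Plekhb1 (0.94) and Slc27a5, which activates bile acids and fatty acids (0.94). After removal of the group means they were Slc13a3 (0.86), the extracellular superoxide dismutase Sod3 (0.85), Slco1a1 (0.85) and the organic anion transporter Slco1a4 (0.83). At 24 h and 2000 mg/kg Slco1a1 fell, with -1.26 ± 0.19, and so did Slc27a5, with -1.38 ± 0.19.

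For Cyp1a2 the closest were the clotting factor genes F10 (r = 0.92) and F13b (0.91), Ldhd, a lactate dehydrogenase (0.91), Gulo, the last enzyme of vitamin C synthesis (0.91), and the hepatic protease Tmprss6 (0.89). Without the group means they were Aldh9a1, Glyctk, F10, Aldh7a1 and Pgm1 (0.85 to 0.86). For Cyp2e1 the closest were Hadhb of fatty acid oxidation (r = 0.78), Grpel1, Gpt, Aldh1l1 and Pex7 (0.68 to 0.71). Without the group means they were the tyrosine-breakdown enzyme Hpd (0.80), Ces1e, the peroxisomal enzyme Ehhadh, Aldh1l1 and Car5a (0.76 to 0.77).

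Other P450s of families 1 to 3 fell widely at 24 h, and none was called higher. Of 25 measured, 13 fell and 0 rose at each toxic dose, beside 11.4% and 12.5% of gene rows called lower at 1500 and 2000 mg/kg. Their median was -0.38 and -0.46 at these doses, against -0.01 over all gene rows at each. Cyp2c11, the main male-specific P450 of rat liver, fell, with -2.03 ± 0.19 (limma adjusted p = 4.9e-13) at 2000 mg/kg, as did Cyp2t1 with -1.24 ± 0.10 and Cyp2u1 with -0.81 ± 0.10. In rats free of the shared blank probes, 6 of the 25 fell at 1500 mg/kg and 9 at 2000 mg/kg. In those rats 595 and 2773 of 18978 gene rows passed in either direction at these doses. At 3 and 6 h 1 of the 25 fell at each toxic dose, Cyp2u1 at 3 h (-0.53 and -0.57) and Cyp2f4 at 6 h (-0.50 and -0.58). Of all gene rows, 2.46% and 4.1% were called lower at 3 h at 1500 and 2000 mg/kg, and 3.23% and 5.84% at 6 h.

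**Figure D4:**
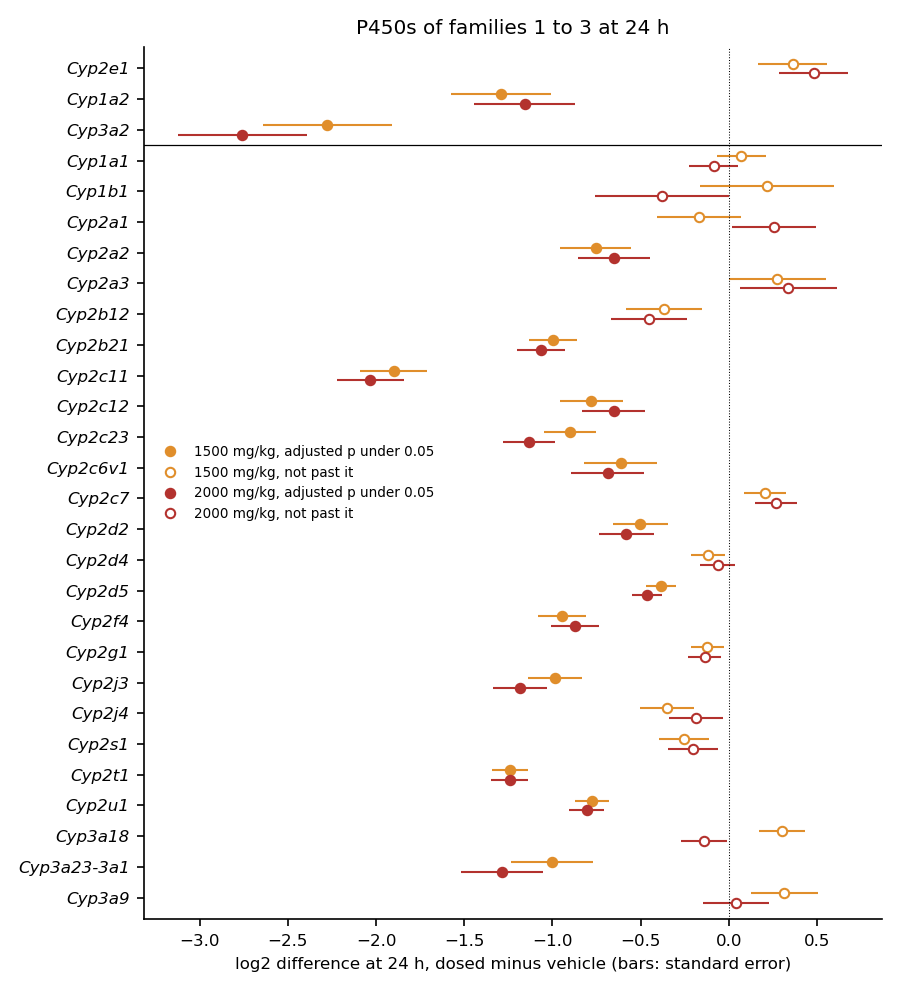
The log2 difference from vehicle at 24 h (x axis, bars are SE) is drawn for Cyp2e1, Cyp1a2, Cyp3a2 and 25 other P450s of families 1 to 3 (rows), at 1500 and 2000 mg/kg, 6 rats against 6. Filled points have a limma adjusted p under 0.05, and all filled points are below 0. Cyp3a2 lies furthest to the left and Cyp2e1 furthest to the right at 2000 mg/kg.

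The nearest relatives of the members fall outside the rule for named genes and were chosen after their values were seen. In the Cyp3a subfamily, Cyp3a23-3a1 fell at both doses (limma adjusted p = 0.00077 at 1500 mg/kg), with -1.28 ± 0.23 at 2000 mg/kg (limma adjusted p = 1.6e-05). Binding of Cyp3a2 transcript to its probe was not tested. Cyp3a18 was at 0.30 and -0.14 and Cyp3a9 at 0.32 and 0.04 at these doses, and neither passed. In family 1, Cyp1a1, the most inducible AHR target, was at 0.07 and -0.09 and Cyp1b1 at 0.22 and -0.38, and neither passed. Of 4 AHR targets, 1 rose and 0 fell at each toxic dose at 24 h. It was Nqo1, which is also a target of NRF2. Of 3 male-pattern genes, 2 fell at each dose at 24 h, Cyp2c11 and Cyp2a2 (-0.65 at 2000 mg/kg). Of 4 female-pattern genes Cyp2c12 fell at each dose (-0.65 at 2000 mg/kg), and Prlr, the prolactin receptor, rose at 2000 mg/kg (0.76). Over all gene rows of 24 h, 11.4% were called lower and 10.2% higher at 1500 mg/kg, and 12.5% and 11.8% at 2000 mg/kg.

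At 3 h 1 of 5 P450 redox partners and 1 of 10 genes of heme synthesis and breakdown rose at each toxic dose, and none fell, beside 3.39% of gene rows called higher at 1500 mg/kg and 4.92% at 2000 mg/kg. Por, the electron donor of all these enzymes, rose by 1.33 ± 0.18 at 1500 mg/kg and 1.38 ± 0.18 at 2000 mg/kg at 3 h, and it was still higher at 24 h, by 1.05 ± 0.18 at 2000 mg/kg. Alas1, which starts heme synthesis, rose by 2.43 ± 0.33 and 2.84 ± 0.33 at 3 h, and was at 0.49 ± 0.33 (limma adjusted p = 0.31) at 24 h and 2000 mg/kg. Of 5 P450 redox partners, 2 rose at each toxic dose at 24 h, while 1 fell at 1500 mg/kg and 2 at 2000 mg/kg, with Pgrmc1 at 0.64 and the cytochrome b5 reductase Cyb5r3 at -0.94. Of 10 genes of heme synthesis and breakdown, 3 rose and 2 fell at each dose at 24 h. The shares of all gene rows there were 10.2% higher and 11.4% lower at 1500 mg/kg, and 11.8% and 12.5% at 2000 mg/kg. At 2000 mg/kg the heme transporter Slc48a1 rose by 1.27 ± 0.16 and the biliverdin reductase Blvrb by 0.62 ± 0.08, while Blvra fell, with -0.53 ± 0.08, and so did Alad, the next enzyme of heme synthesis, with -0.57 ± 0.15. Hmox1, singled out after its values were seen, rose there, by 2.43 ± 0.50, and already at 6 h, by 2.02 ± 0.50.

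**Figure D5:**
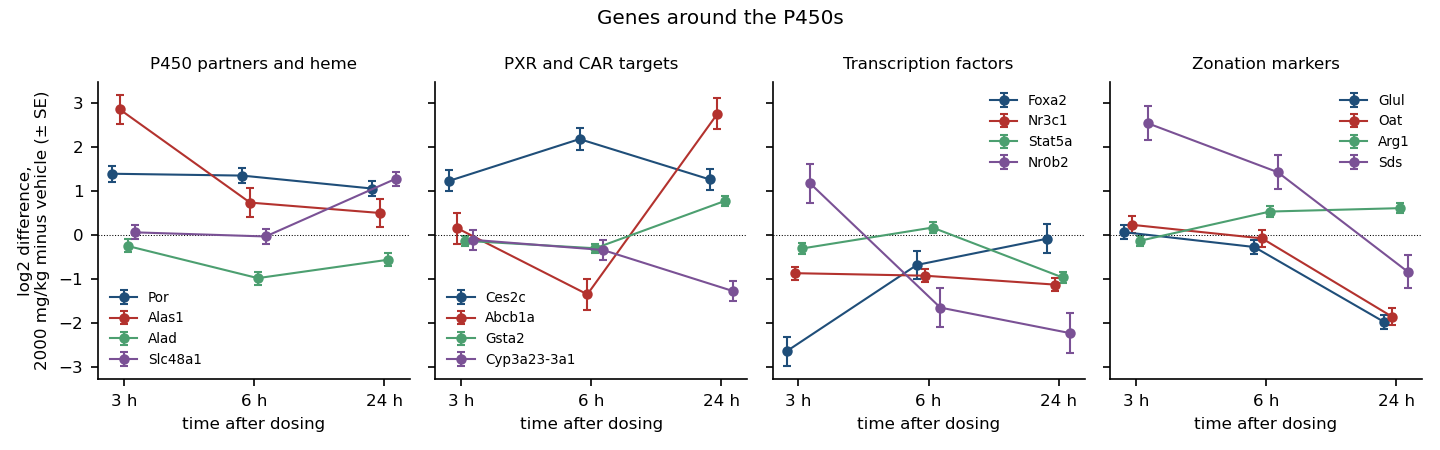
The log2 difference of 2000 mg/kg minus vehicle (y axis, ± SE, 6 rats against 6) is shown at 3, 6 and 24 h for partners of the P450s and heme genes, for PXR and CAR targets, for transcription factors and for zonation markers. Por and Ces2c lie above 1 at all 3 times, Foxa2 is lowest at 3 h, and Glul and Oat are near -2 at 24 h.

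Targets of PXR and of its relative CAR did not move as 1 group. Of 10 measured, 4 rose and 0 fell at 3 h at each toxic dose. The shares of all gene rows at 3 h were 3.39% higher and 2.46% lower at 1500 mg/kg, and 4.92% and 4.1% at 2000 mg/kg. At 6 h 3 rose and 1 fell at 1500 mg/kg, and 3 rose and 3 fell at 2000 mg/kg. The shares of all gene rows at 6 h were 3.65% higher and 3.23% lower at 1500 mg/kg, and 5.31% and 5.84% at 2000 mg/kg. At 24 h 2 fell at each dose, while 5 rose at 1500 mg/kg and 6 at 2000 mg/kg. Of all gene rows of 24 h, 11.4% and 12.5% were called lower at these doses, and 10.2% and 11.8% higher. Ces2c, a carboxylesterase, rose by 2.07 ± 0.24 and 2.17 ± 0.24 at 6 h at 1500 and 2000 mg/kg. Abcb1a fell at 6 h and 2000 mg/kg, with -1.36 ± 0.35 (limma adjusted p = 0.0052). At 24 h and 2000 mg/kg the drug pump Abcb1a rose by 2.75 ± 0.35 and Gsta2 by 0.77 ± 0.11, while Slco1a4 (-1.63 ± 0.30) fell, as did Cyp3a23-3a1, for which binding of Cyp3a2 transcript was not tested. In rats free of the shared blank probes, limma called 0 of the 10 at 24 h and 1500 mg/kg. It called 595 of 18978 gene rows in those rats.

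Transcription factors that control P450 genes changed in part. Of 17 measured, 2 fell at each toxic dose at 3 h, while 2 rose at 1500 mg/kg and 1 at 2000 mg/kg. Over all gene rows, 2.46% and 4.1% were called lower at these doses, and 3.39% and 4.92% higher. At 24 h 5 fell and 0 rose at 1500 mg/kg, and 3 fell and 1 rose at 2000 mg/kg. Beside these counts, 11.4% of gene rows were called lower and 10.2% higher at 1500 mg/kg. At 2000 mg/kg the shares were 12.5% and 11.8%, and the list was not tested against them. Foxa2, a hepatocyte factor, fell at 3 h, with -2.09 ± 0.33 at 1500 mg/kg and -2.65 ± 0.33 at 2000 mg/kg. By 24 h its difference was -0.09 at 2000 mg/kg. The glucocorticoid receptor Nr3c1 was lower at 2000 mg/kg at all 3 times, with -0.88, -0.93 and -1.14 at 3, 6 and 24 h (SE 0.15 each). Stat5a, which carries growth hormone signals, fell at 24 h and 2000 mg/kg, with -0.98 ± 0.13, and so did the repressor Nr0b2, with -2.24 ± 0.45. The receptors were likewise chosen after their values were seen. PXR itself, Nr1i2, rose at 6 h, with 0.39 ± 0.13 at 1500 mg/kg and 0.44 ± 0.13 at 2000 mg/kg (limma adjusted p = 0.048 and 0.014). At 24 h it fell at 1500 mg/kg, with -0.39 ± 0.13 (limma adjusted p = 0.019), and was at -0.26 ± 0.13 at 2000 mg/kg (limma adjusted p = 0.13). Neither Ahr (-0.04) nor Nr1i3, which encodes CAR (0.13), passed at 24 h and 2000 mg/kg.

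Genes of the other acetaminophen routes went both ways at 24 h. Of 16 conjugation genes, 9 rose at 1500 mg/kg and 8 at 2000 mg/kg, while 4 and 3 fell, with a median of 0.57 and 0.55 against -0.01 over all gene rows. Of those rows, 10.2% and 11.8% were called higher at these doses, and 11.4% and 12.5% lower. Gclm and Gss of glutathione synthesis rose by 2.30 ± 0.20 and 1.60 ± 0.14, and the glutathione transferase Gsta3 by 1.77 ± 0.20, at 2000 mg/kg. The 3 that fell at 2000 mg/kg, named after their values were seen, belong to sulfation: Sult1c3 was at -2.05, Sult1c2 at -0.90 and Papss2 at -0.62. At 3 h 0 of the 16 passed at either toxic dose, beside 5.85% of gene rows at 1500 mg/kg and 9.03% at 2000 mg/kg. At 6 h 1 rose at each dose, while 1 fell at 1500 mg/kg and 2 at 2000 mg/kg. Ugp2, which makes the glucuronic acid donor, was at -0.97 at 6 h and 2000 mg/kg. The shares of all gene rows at 6 h were 3.65% higher and 3.23% lower at 1500 mg/kg, and 5.31% and 5.84% at 2000 mg/kg.

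Markers of liver zones and of other cell types were read at 24 h. Of all gene rows, 11.4% were called lower and 10.2% higher at 1500 mg/kg, and 12.5% and 11.8% at 2000 mg/kg. No marker list was tested against these shares. Of 9 pericentral markers none rose, while 4 fell at 1500 mg/kg and 5 at 2000 mg/kg, with Glul at -1.99 ± 0.16, Oat at -1.87 ± 0.19 and Lect2 at -1.06 ± 0.12 at 2000 mg/kg. Of 9 periportal markers, 5 fell and 1 rose at 1500 mg/kg, and 2 fell and 2 rose at 2000 mg/kg, with the arginase Arg1 at 0.60 and Cyp2f4 at -0.87. The median log2 ratio over the pericentral list ranged by rat from -0.78 to -0.09 at 1500 mg/kg and from -0.46 to -0.22 at 2000 mg/kg, against -0.09 to 0.05 in vehicle rats. That of the periportal list ranged from -0.61 to 0.20 and from -0.44 to 0.43, against -0.26 to 0.27 in vehicle rats. Pericentral values at 2000 mg/kg thus lay below all vehicle rats, and periportal values overlapped with them. The median log2 difference from vehicle was nevertheless larger over the periportal genes, at -0.50 and -0.38 at 1500 and 2000 mg/kg. Over the pericentral genes it was -0.15 and -0.25. The part of zonal cell loss in the P450 values was not tested.

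Of 4 neutrophil markers, S100a8 and S100a9 rose at 1500 mg/kg, S100a9 alone rose at 2000 mg/kg (1.64 ± 0.54) and none fell. Their median per rat ranged from -0.27 to 1.98 at 1500 mg/kg and from -0.36 to 1.86 at 2000 mg/kg, against -0.48 to 0.60 in vehicle rats, with the highest values in the 3 rats of low Cyp2e1. Of 9 macrophage and Kupffer cell markers, 4 fell at each dose, with Clec4f at -0.91 and Cd5l at -0.79 at 2000 mg/kg, and their median per rat ranged from -0.50 to 0.00 and from -0.55 to -0.12, against -0.10 to 0.39 in vehicle rats. Of 6 T and B cell markers 3 and 2 fell (Cd8a at -0.40), of 6 endothelial markers 3 and 4 fell (Kdr at -0.79), and of 8 stellate cell markers 3 and 3 fell (Lrat at -1.73). Of 5 cholangiocyte markers none passed at 24 h, and their median per rat reached 1.39 in 1 rat at 2000 mg/kg. Of 12 secreted hepatocyte proteins, 2 rose at each dose, while 2 fell at 1500 mg/kg and 1 at 2000 mg/kg, with Apoa2 at -0.71. All these counts stand beside 11.4% of gene rows called lower and 10.2% higher at 1500 mg/kg, and 12.5% and 11.8% at 2000 mg/kg. The part of shifts in cell makeup in the P450 values was not tested.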

How the data were processed

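Per the labels, liver RNA of 72 rats was hybridised on 2 arrays per rat with exchanged dyes, against time-matched vehicle pools. The authors deposited processed log10 ratios, as assumed here (median of every array 0 to 0.000258). A dose key, deposited separately from these values, matched all 72 rats. The sources used here do not give log base, direction, background correction or dye normalization, and no detection flags were used. Exact zeros made up 7.74% of values and blanks 0.836%. From these values, log2 was taken (factor 3.32), values of Cy3 arrays changed sign, and each rat's pair of arrays was averaged, which cancels a constant dye effect. Symbols came from the platform annotation: 12750 probes had 1, 5 several and 9320 none. All 72 rats were fitted with 12 group means in limma 3.58.1 (R 4.3.3), Benjamini-Hochberg at 0.05 over 18978 rows; exact zeros were kept. The fit was tested on simulated data. Pair tests and correlations used Python 3.11.15, NumPy 2.4.6, pandas 2.3.3 and SciPy 1.17.1. The number of rats limits the precision, and p-values measure the spread between rats. The members and gene lists were chosen with earlier results of these data known. In each list the 3 genes with the smallest p at 24 h and 2000 mg/kg were named, with the 1 called gene of smallest p for each earlier toxic group, and the 5 most correlated symbols per member. Other genes named (Hmox1, S100a8, relatives of the members, receptors, sulfation genes, and genes at further times) were chosen after their values were seen. Alternatives were centring, either dye orientation, complete rows, single probes, a random rat block, the compared groups alone, weights per rat, zeros as missing, the shared blank probes as covariate or split, discordant rats left out, another log base and each rat left out. Split list counts and the correlations within 9 rats were chosen after seeing the data, and the values of those correlations are not reported.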

Additional observations from a re-analysis of the deposited data

Results flagged for a closer look

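The effect of a toxic dose differed between times by a test of the difference itself for Cyp1a2 and Cyp3a2. For Cyp1a2 the effect at 24 h minus that at 3 h was -1.24 at 1500 mg/kg (limma adjusted p = 0.032) and -1.41 at 2000 mg/kg (limma adjusted p = 0.0097). For Cyp3a2 the effect at 24 h minus that at 6 h was -2.08 at 1500 mg/kg (limma adjusted p = 0.0046) and -2.37 at 2000 mg/kg (limma adjusted p = 0.00075). The effect on Cyp3a2 at 24 h minus that at 3 h was -1.83 at 1500 mg/kg (limma adjusted p = 0.011) and -2.56 at 2000 mg/kg (limma adjusted p = 0.00019). In none of the 36 combinations of gene and group did 1 rat stand apart by Dixon's test, which by chance would mark about 1 in 20.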

How the results depend on the processing

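The falls of Cyp3a2 and Cyp1a2 at 24 h and 2000 mg/kg kept direction and call under every alternative run, and so did those at 1500 mg/kg except as follows. Rats free of the shared blank probes (3 dosed rats at 1500 mg/kg) gave Cyp3a2 -1.56 (limma adjusted p = 0.069) and Cyp1a2 -0.92 (limma adjusted p = 0.28), and the compared groups alone gave -2.28 (limma adjusted p = 0.053) and -1.29 (limma adjusted p = 0.055). With Cy3 arrays alone, the 1500 mg/kg effect on Cyp1a2 at 24 h minus 3 h was -1.18 (limma adjusted p = 0.06). Some differences passed only elsewhere. Cyp2e1 at 24 h and 2000 mg/kg passed with weights per rat (0.57) and with the rat as a random block (0.48). Cyp1a2 at 6 h and 2000 mg/kg passed with weights (-0.58), the compared groups alone (-0.59) and the random block (-0.59), and at 1500 mg/kg with the random block (-0.59). The causes were not tested.

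Small differences, none of them called, changed sign. For Cyp1a2 at 3 h and 1500 mg/kg this gave 0.011 (Cy5 arrays alone), 0.037 (weights) and 0.027 (rats free of the shared blank probes), and at 2000 mg/kg -0.032 (discordant rats left out). For Cyp2e1 the 1500 mg/kg effect at 6 h minus 3 h was 0.043 (Cy5 arrays alone) and 0.084 (blank probes as covariate), and at 24 h minus 6 h -0.0009 (covariate). With Cy3 arrays alone 2000 minus 1500 mg/kg at 6 h was 0.085 for Cyp2e1 and 0.024 for Cyp1a2, Cyp3a2 minus Cyp2e1 at 3 h and 150 mg/kg was -0.022, and Cyp1a2 minus Cyp2e1 at 24 h and 150 mg/kg was 0.0013. At 24 h and 150 mg/kg, weights gave Cyp2e1 -0.018 and Cyp1a2 -0.16, rats with the shared blank probes gave -0.15, -0.29 and, for Cyp3a2, 0.013, and discordant rats left out gave Cyp1a2 -0.16. At 6 h and 150 mg/kg, rats free of the blank probes gave Cyp2e1 0.32 and Cyp1a2 0.0007.

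With each rat left out in turn, no fall of Cyp3a2 or Cyp1a2 at 24 h lost its call. Cyp3a2 ranged from -2.73 to -1.95 at 1500 mg/kg and -3.02 to -2.50 at 2000 mg/kg, and Cyp1a2 from -1.57 to -1.15 and -1.35 to -0.94. Cyp2e1 ranged from 0.23 to 0.53 at 1500 mg/kg and from 0.37 to 0.69 at 2000 mg/kg. The 1500 mg/kg effect on Cyp1a2 at 24 h minus 3 h ranged from -1.52 to -1.04. Values near 0 changed sign: at 3 h Cyp1a2 ranged from -0.17 to 0.21 at 150 mg/kg and -0.25 to 0.15 at 1500 mg/kg. The 1500 mg/kg effect on Cyp2e1 ranged from -0.13 to 0.065 (6 minus 3 h), -0.052 to 0.25 (24 minus 3 h) and -0.041 to 0.26 (24 minus 6 h). Cyp2e1 ranged from -0.16 to 0.029 at 6 h and 150 mg/kg, and Cyp1a2 from -0.16 to 0.12 at 24 h and 150 mg/kg. For 2000 minus 1500 mg/kg, Cyp2e1 ranged from -0.011 to 0.16 at 3 h, -0.10 to 0.034 at 6 h and -0.048 to 0.33 at 24 h, and Cyp1a2 from -0.18 to 0.12 at 6 h and -0.0090 to 0.41 at 24 h.

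Counts over all gene rows moved more. At 24 h and 1500 mg/kg 4084 passed, 1406 with the compared groups alone and 595 in rats free of the blank probes, and at 2000 mg/kg 4609, against 2773 there and 2360 in rats with them. At 6 h weights gave 3093 and 4273, against 1305 and 2116. Taken as log2, the deposited values give Cyp3a2 at 24 h and 2000 mg/kg -0.83, and as natural logs -1.20. The number of rats and the missing detection flags limit what can be said of small differences. No paired analysis was possible because each rat belongs to 1 group only and no number is shared between groups.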
